A study of Danio rerio with 15 samples.

Results

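The 10 genes described here are tcf21, tbx18, wt1a, wt1b, aldh1a2, fn1a, fn1b, hapln1a, hapln1b and mdka. These genes encode transcription factors that mark the outer cell layer of the heart, an enzyme that makes retinoic acid (aldh1a2), and matrix or growth factor proteins known from heart regeneration. They were chosen by name, as were the gene lists below, with earlier results of these data known. Each was read from the transcript cluster that carries its symbol alone in the array annotation. A transcript cluster is the set of probes that stands for about 1 gene on a whole-transcript array. All 10 members had exactly 1 such cluster, out of 19260 named genes in the analysis.

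The values come from ventricles of zebrafish made anaemic with phenylhydrazine, which lyses red blood cells. Each of 15 arrays held labelled RNA (250 ng) from 3 pooled ventricles, and every group had 3 arrays. The end-of-treatment group had been bathed for 30 min every 3 days over 5 weeks, at 1.25 µg/mL phenylhydrazine in week 1 and at 2.5 µg/mL after that. Further groups had the same treatment and were sampled 2, 5 and 9 days after it ended. Control fish had the same handling in baths without the compound. The labels give no strain or age, no sampling day for the controls, and no untreated group of its own for each later time, so recovery and sampling day cannot be told apart. The labels call the pools biological replicates, and the p-values measure the spread between pools of 3 ventricles. A level in whole ventricle RNA can differ with the number of cells of a type or with the RNA that each cell holds. It can also differ with the share of RNA that comes from other cells, and these cannot be told apart here.

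The epicardium is the thin cell layer that covers the heart. In zebrafish it is known to be activated when the heart is injured, to proliferate, and to supply matrix, growth factors and perivascular cells to the muscle beneath. Tcf21, Tbx18 and the Wt1 proteins are transcription factors used as epicardial markers. Aldh1a2 makes retinoic acid and is induced in epicardium and endocardium after injury of the zebrafish heart. Fibronectin is a matrix protein to which cells attach through integrins. Hapln1 proteins are link proteins that tie proteoglycans to hyaluronan, and midkine (mdka) is a heparin-binding growth factor.

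At the end of treatment the matrix and growth factor genes were high and a pair of epicardial transcription factor genes was low. Expression of hapln1a was 3.12-fold that of controls, hapln1b 2.42-fold, mdka 2.18-fold, fn1b 1.94-fold and fn1a 1.89-fold. The order of hapln1a and hapln1b reversed without control replicate 3. Expression of tcf21 was 1.8-fold lower than in controls and that of tbx18 1.62-fold lower. For wt1a, wt1b and aldh1a2 no difference from controls was detected at that time. From 2 days on the levels of fn1a and mdka overlapped those of the controls, and hapln1b was higher than in controls at 2 and 5 days.

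**Figure D1:**
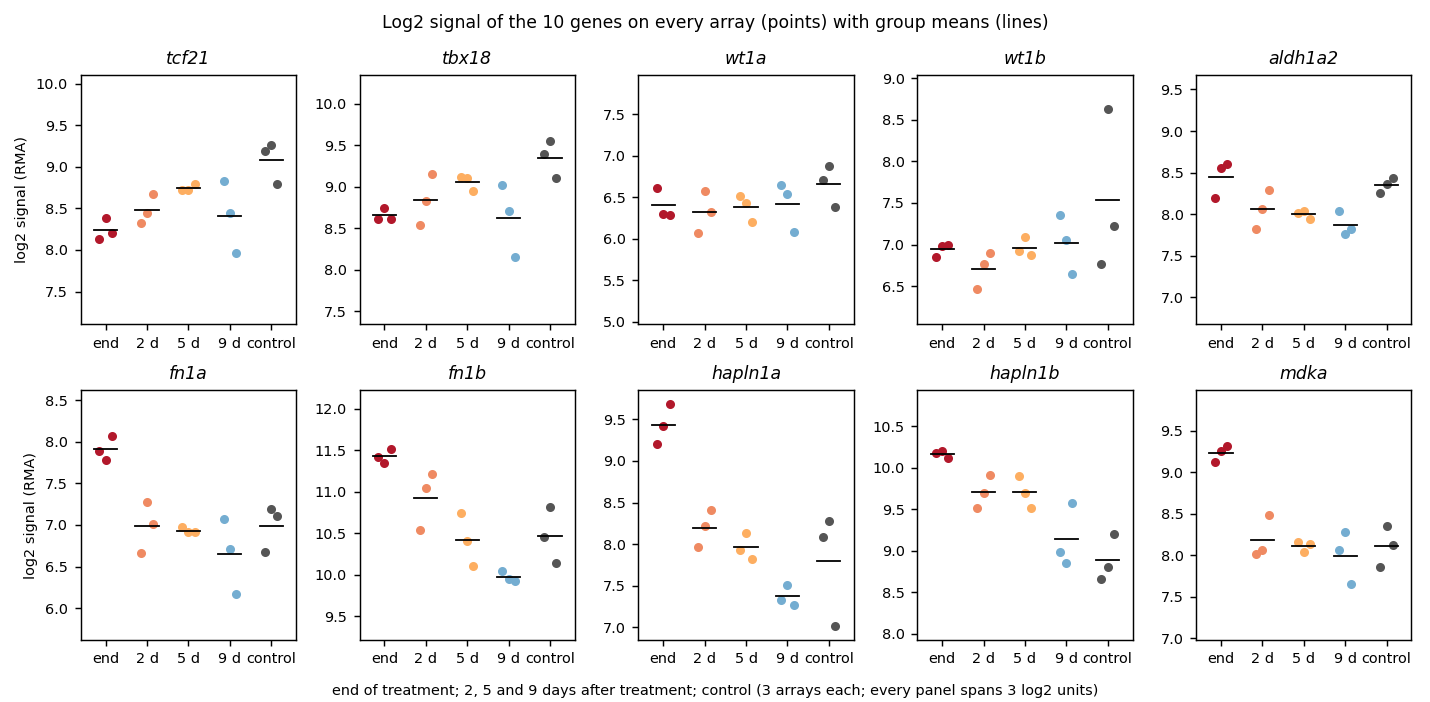
Log2 signal of each of the 10 genes (vertical axis) on every array (points, 3 per group) with the group mean (line), for the end of treatment, the later samplings at 2, 5 and 9 days, and control. Every panel spans 3 log2 units from its own start, so heights within a panel can be compared but not levels between genes. The 3 end-of-treatment arrays lie above all other arrays for fn1a, fn1b, hapln1a, hapln1b and mdka, and 1 control array stands apart for wt1b at 8.63.

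Calls were made with limma over all 19260 genes at a Benjamini-Hochberg adjusted p under 0.05. At the end of treatment against control 7 of the 10 members were called, 5 higher and 2 lower, where 24.2% of all genes were called (14.6% higher and 9.60% lower). The arrays of the 2 groups did not overlap for 7 members, and the same held for 38.1% of all genes. The median log2 difference was 0.51 over the members and 0.01 over all genes. All 7 calls held when any 1 of the 15 arrays was left out.

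Fewer members were called during recovery. Against control, 2 members were called at 2 days, 1 higher and 1 lower, where 11.8% of all genes were called (7.62% higher and 4.15% lower). At 5 days 1 member was called, higher, against 6.37% of all genes (3.90% higher). At 9 days 3 members were called, all lower, against 7.54% of all genes (3.30% lower). These comparisons share their control arrays with each other and with the end-of-treatment comparison. Relative to the end of treatment, 3 members were lower at 2 days, where 7.98% of all genes were called (4.45% lower). The count was 5 lower at 5 days (12.3% of all genes called, 8.01% lower) and 6 lower at 9 days (19.0% called, 7.38% higher and 11.6% lower), with 0 members higher at any of these times. For 5 against 2 days limma called 0 members and 0.187% of all genes, with fn1b alone at an unadjusted p under 0.05. For 9 against 5 days limma called 0 members and 6.12% of all genes, and 4 members had an unadjusted p under 0.05 (fn1b, hapln1a, hapln1b and tbx18). The share of all genes with an unadjusted p under 0.05 is not given for these 2 comparisons. The shares at an adjusted p are no baseline for the unadjusted values. An F test over the 5 groups called 8 members, against 26.9% of all genes, with wt1a (adjusted p = 0.534) and wt1b (adjusted p = 0.307) outside.

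**Figure D2:**
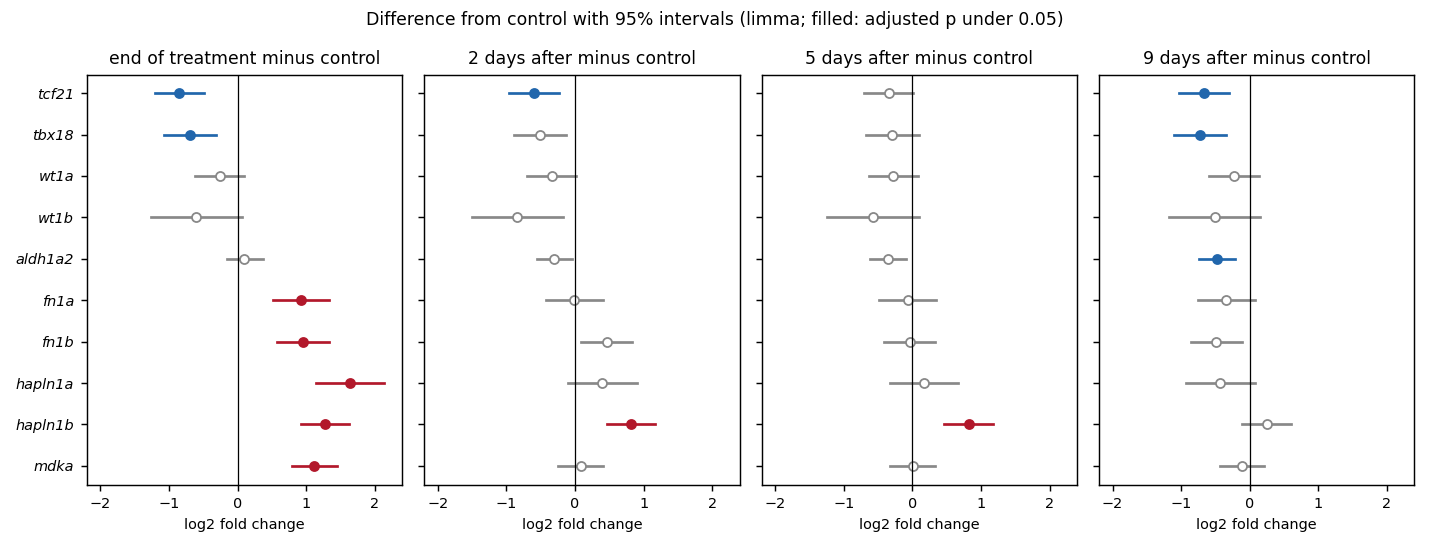
Log2 difference from control for each of the 10 genes (horizontal axis) at the end of treatment and on days 2, 5 and 9 of recovery, with 95% confidence intervals from limma. Filled points have an adjusted p under 0.05, red for higher and blue for lower. There are 7 filled points at the end of treatment, 2 at 2 days, 1 at 5 days and 3 at 9 days.

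The transcription factor gene tcf21, which marks epicardial cells and fibroblasts that derive from them, was lower at the end of treatment than in controls. Its log2 signal was 8.13, 8.38 and 8.20 at the end of treatment, 8.33, 8.45 and 8.67 at 2 days, 8.72, 8.72 and 8.79 at 5 days, 8.83, 8.44 and 7.96 at 9 days, and 9.19, 9.26 and 8.79 in controls. The end-of-treatment and 2-day arrays all lay below the controls, the 5-day arrays reached just under the lowest control, and the 9-day arrays were widely spread. By group mean the order was control, 5 days, 2 days, 9 days and end of treatment, and the last 3 overlapped. The log2 difference from control was -0.85 ± 0.17 (SE, adjusted p = 0.00125) at the end of treatment, -0.60 ± 0.17 (adjusted p = 0.0288) at 2 days, -0.34 ± 0.17 (adjusted p = 0.271) at 5 days and -0.67 ± 0.17 (adjusted p = 0.0229) at 9 days. The 2-day call was lost without control replicate 1 or 2, or without 2-day replicate 1 or 2 (adjusted p between 0.0804 and 0.11). The 9-day call was lost without control replicate 1 or 2, or without 9-day replicate 2 or 3. Without 9-day replicate 3, whose 7.96 is the lowest value of the series for this gene, the 9-day difference was -0.45 (adjusted p = 0.105). Both calls were also lost with adjustment over every transcript cluster of the array (adjusted p = 0.0995 and 0.0851). They were lost too with the erythroid marker score of each array in the fit (adjusted p = 0.775 and 0.0934). In that fit the values were -0.66 at 2 days and -0.69 at 9 days. The factor on standard errors, given as 1 value per comparison and not for this gene, was 2.72 and 1.24. The 2-day call was further lost without the variance trend (adjusted p = 0.0524), and the 9-day call in a fit of only the 6 arrays compared (adjusted p = 0.0891). The 5-day arrays did not overlap those of the end of treatment, and this difference of 0.50 ± 0.17 did not pass the threshold (adjusted p = 0.0637), though it did without 9-day replicate 1 (adjusted p = 0.0242) or 3 (adjusted p = 0.0166). It also passed in a fit of only the 6 arrays compared (adjusted p = 0.00625), with median centring (0.0255) and with cyclic loess (0.0477).

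The T-box gene tbx18, also an epicardial marker, was lower at the end of treatment and at 9 days. Its log2 signal was 8.61, 8.75 and 8.61 at the end of treatment, 8.54, 8.83 and 9.15 at 2 days, 9.12, 9.10 and 8.95 at 5 days, 9.02, 8.71 and 8.15 at 9 days, and 9.40, 9.55 and 9.10 in controls. Only the end-of-treatment and 9-day arrays lay wholly below the controls, and neighbouring groups overlapped in the order control, 5 days, 2 days, end of treatment and 9 days. The log2 difference from control was -0.69 ± 0.18 (adjusted p = 0.00906) at the end of treatment, -0.51 ± 0.18 (adjusted p = 0.0822) at 2 days, -0.30 ± 0.18 (adjusted p = 0.397) at 5 days and -0.73 ± 0.18 (adjusted p = 0.0217) at 9 days. The 9-day call was lost without control replicate 1 (adjusted p = 0.07), without control replicate 2 (adjusted p = 0.0908) and without 9-day replicate 3 (-0.49, adjusted p = 0.103). The 2-day difference passed without 2-day replicate 3 (-0.67, adjusted p = 0.0404) and without 9-day replicate 1 or 3 (adjusted p = 0.0472 and 0.0271). With the erythroid score in the fit the end-of-treatment difference was -0.72 (adjusted p = 0.0503) and the 9-day difference -0.75 (adjusted p = 0.0891), and the 9-day adjusted p was 0.0838 over every transcript cluster and 0.0657 in a fit of only the 6 arrays compared. The 5-day arrays lay above those of the end of treatment, by 0.40 ± 0.18 (adjusted p = 0.189). This difference passed in a fit of only those 6 arrays (adjusted p = 0.0164).

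The 2 genes deviated together from array to array. After subtraction of group means, Pearson's r between tcf21 and tbx18 was 0.94 over the 15 arrays, the highest value among all pairs of the 10 genes. The largest deviations of both genes were on 9-day replicate 1 (0.42 for tcf21, 0.39 for tbx18) and 9-day replicate 3 (-0.45 and -0.47). The points share arrays and normalization, and the value of r is a description. Within each array tbx18 exceeded tcf21 by 0.42 ± 0.06 log2 units at the end of treatment, 0.36 ± 0.14 at 2 days, 0.31 ± 0.13 at 5 days, 0.21 ± 0.04 at 9 days and 0.27 ± 0.05 in controls (SD, n = 3). These offsets depend on probe brightness and say nothing of which gene is more abundant.

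The paired Wilms tumour genes wt1a and wt1b, zinc finger transcription factors that zebrafish epicardium expresses during development and after injury, were not called in any of the 9 comparisons. For wt1a the log2 signal was 6.61, 6.30 and 6.29 at the end of treatment, 6.07, 6.57 and 6.32 at 2 days, 6.51, 6.43 and 6.20 at 5 days, 6.65, 6.54 and 6.08 at 9 days, and 6.71, 6.88 and 6.38 in controls. All 5 groups overlapped, and differences from control lay between -0.34 ± 0.17 at 2 days and -0.23 ± 0.17 at 9 days. The 95% interval at the end of treatment was -0.62 to 0.10 for wt1a. For wt1b the signal was 6.85, 6.98 and 7.0 at the end of treatment, 6.46, 6.76 and 6.90 at 2 days, 6.92, 7.09 and 6.88 at 5 days, 7.36, 7.06 and 6.65 at 9 days, and 6.77, 8.63 and 7.22 in controls. Control replicate 2 stood alone at 8.63, above every other array of the series.

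The wt1b differences depended on that array. With all arrays wt1b differed from control by -0.60 ± 0.32 (adjusted p = 0.205) at the end of treatment, -0.84 ± 0.32 (adjusted p = 0.104) at 2 days, -0.57 ± 0.32 (adjusted p = 0.334) at 5 days and -0.51 ± 0.32 (adjusted p = 0.382) at 9 days. Without control replicate 2 the same differences were -0.05, -0.29, -0.03 and 0.03, with adjusted p between 0.411 and 0.966. Without control replicate 1, which has the lowest control value, wt1b passed the threshold at the end of treatment (-0.98, adjusted p = 0.0238) and at 2 days (-1.22, adjusted p = 0.0159). With the erythroid score in the fit wt1b passed at all 4 times, with -1.37 (adjusted p = 0.00203) at the end of treatment. The later values were -3.31 (adjusted p = 0.0366) at 2 days, -1.95 (adjusted p = 0.0252) at 5 days and -1.23 (adjusted p = 0.0186) at 9 days. Control replicate 2 has the highest erythroid score of the controls, 0.39 against -0.29 and -0.05. Control replicate 1 has both the lowest score and the lowest wt1b signal of the controls. Inside the other groups the score spanned 0.31 to 0.38 (end of treatment), 1.02 to 1.11 (2 days), 0.56 to 0.65 (5 days) and 0.24 to 0.40 (9 days). The slope of wt1b on the score therefore rests mostly on the control arrays, and this fit cannot decide whether wt1b was lower.

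The retinoic acid synthesis gene aldh1a2 did not differ detectably from control at the end of treatment and was lower at 5 and 9 days than at the end of treatment. Its log2 signal was 8.20, 8.56 and 8.60 at the end of treatment, 7.82, 8.06 and 8.29 at 2 days, 8.01, 8.04 and 7.94 at 5 days, 8.04, 7.76 and 7.82 at 9 days, and 8.25, 8.36 and 8.44 in controls. The end-of-treatment arrays enclosed the control range, and the 5-day and 9-day arrays lay below both. In the order end of treatment, control, 2 days, 5 days and 9 days each neighbouring pair overlapped. The end-of-treatment difference from control was 0.10 ± 0.12 (95% interval -0.16 to 0.37, adjusted p = 0.629). At 9 days the difference from control was -0.48 ± 0.12 (adjusted p = 0.026), and the call was lost without control replicate 2 or 3 or 9-day replicate 2 or 3 (adjusted p between 0.0722 and 0.0969). It was also lost without the variance trend (adjusted p = 0.0506), over every transcript cluster (0.0874) and with the erythroid score in the fit (0.129). With that score the value was -0.46, and the comparison's factor on standard errors was 1.24. The differences from control at 2 and 5 days were -0.30 ± 0.12 (adjusted p = 0.148) and -0.36 ± 0.12 (adjusted p = 0.102).

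Compared with the end of treatment, aldh1a2 was lower at 9 days (-0.58 ± 0.12, adjusted p = 0.0029), a call that held with every array left out in turn. It was also lower at 5 days (-0.46 ± 0.12, adjusted p = 0.02). This call was lost without end-of-treatment replicate 2 or 3 or 5-day replicate 3 (adjusted p between 0.0664 and 0.0915). It was also lost over every transcript cluster (adjusted p = 0.0732) and with the erythroid score in the fit (-0.44, adjusted p = 0.0787). The 2-day value was -0.40 ± 0.12 (adjusted p = 0.0581), and it passed without end-of-treatment replicate 1 (adjusted p = 0.019) or 2-day replicate 3 (adjusted p = 0.0206).

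Of 25 other genes of retinoic acid metabolism and signalling that were measured (28 listed), 3 were higher and 3 lower at the end of treatment than in controls. That is 24% of the list, about the 24.2% of all genes called, with a list median of -0.04 against 0.01 over all genes. The higher genes were cyp26b1, which degrades retinoic acid (1.19 ± 0.20), the retinaldehyde reductase gene dhrs3a (0.73 ± 0.17) and the retinoic acid binding protein gene crabp2b (0.68 ± 0.16). The lower ones were the retinol carrier gene rbp4 (-1.36 ± 0.12), dhrs3b (-0.58 ± 0.15) and the corepressor gene ncor1 (-0.28 ± 0.09). The dhrs3b call was lost without end-of-treatment replicate 2 (-0.43, adjusted p = 0.0616), and the ncor1 call without control replicate 3 or end-of-treatment replicate 1 or 2. For cyp26b1 the mean log2 signal was 7.57 ± 0.17 at the end of treatment, 6.78 ± 0.42 at 2 days, 6.52 ± 0.20 at 5 days, 6.03 ± 0.35 at 9 days and 6.38 ± 0.26 in controls (SD, n = 3). At 9 days against the end of treatment cyp26b1 (-1.54 ± 0.20), crabp2b (-0.88 ± 0.16) and crabp2a (-0.56 ± 0.15) were lower. The genes rbp4 (1.22 ± 0.12), rxrbb (0.50 ± 0.07), which encodes a retinoid X receptor, and ncor1 (0.33 ± 0.09) were higher. The calls of crabp2a and ncor1 in this comparison each depended on single arrays.

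Both fibronectin genes were higher at the end of treatment. The log2 signal of fn1a was 7.89, 7.78 and 8.07 at the end of treatment, 6.66, 7.28 and 7.01 at 2 days, 6.97, 6.91 and 6.91 at 5 days, 7.07, 6.71 and 6.17 at 9 days, and 6.68, 7.19 and 7.11 in controls. The end-of-treatment arrays stood above all 12 others, and the remaining groups overlapped one another. The difference from control was 0.92 ± 0.19 (adjusted p = 0.00198) at the end of treatment, -0.01 ± 0.19 at 2 days, -0.07 ± 0.19 at 5 days and -0.34 ± 0.19 at 9 days, the last 3 with adjusted p of 0.99, 0.905 and 0.337. Compared with the end of treatment, fn1a was lower at 2 days (-0.93, adjusted p = 0.00623), 5 days (-0.99, adjusted p = 0.00278) and 9 days (-1.26, adjusted p = 2e-04). With the erythroid score in the fit the 2-day value was -1.2 and did not pass (adjusted p = 0.228). That score was 1.02 to 1.11 at 2 days and 0.31 to 0.38 at the end of treatment. The comparison's factor on standard errors was 2.

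The other fibronectin gene, fn1b, was intermediate at 2 days and lowest at 9 days. Its log2 signal was 11.42, 11.35 and 11.51 at the end of treatment, 10.54, 11.04 and 11.21 at 2 days, 10.75, 10.41 and 10.11 at 5 days, 10.05, 9.95 and 9.93 at 9 days, and 10.45, 10.82 and 10.14 in controls. The end-of-treatment arrays lay above all others, the 2-day arrays overlapped the controls, and the 9-day arrays lay below the controls. In the order end of treatment, 2 days, control, 5 days and 9 days, the first pair of neighbours and the last did not overlap. The difference from control was 0.96 ± 0.18 (adjusted p = 0.000619) at the end of treatment, 0.46 ± 0.18 (adjusted p = 0.107) at 2 days, -0.04 ± 0.18 (adjusted p = 0.932) at 5 days and -0.49 ± 0.18 (adjusted p = 0.11) at 9 days. Single arrays moved 2 of these across the threshold: without control replicate 2 the 2-day value was 0.64 (adjusted p = 0.0319), without 2-day replicate 1 it was 0.66 (adjusted p = 0.0247), and without control replicate 3 the 9-day value was -0.65 (adjusted p = 0.0468). Relative to the end of treatment fn1b was lower at 5 days (-1.0, adjusted p = 0.00109) and 9 days (-1.44, adjusted p = 2.25e-05), and its 2-day value of -0.49 did not pass (adjusted p = 0.107).

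Of 25 integrin and adhesion genes that bind or act with fibronectin, 7 were higher and 4 lower at the end of treatment than in controls (28% and 16%, against 14.6% and 9.60% of all genes), with a median of 0.04. The gene of the fibronectin and VCAM1 receptor subunit α4, itga4, was higher by 1.29 ± 0.14, the transglutaminase gene tgm2b by 0.98 ± 0.18 and the syndecan gene sdc4 by 0.58 ± 0.08. The lower genes were tln2a (-0.79 ± 0.11), vcla (-0.63 ± 0.11), itga3b (-0.47 ± 0.09) and vclb (-0.26 ± 0.08), which encode talin, vinculins and an integrin α3 subunit. The vclb call was lost without control replicate 2 or 3 or end-of-treatment replicate 1 or 3. At 9 days against the end of treatment 8 of the 25 genes were lower (32%, against 11.6% of all genes), with itga4 at -1.12 ± 0.14. Another 3 were higher (12%, against 7.38% of all genes), namely tln2a (0.62 ± 0.11), vcla (0.37 ± 0.11) and itga3b (0.29 ± 0.09). The calls of vcla and itga3b were lost without single arrays.

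The link protein genes had the 2 largest differences of the 10 at the end of treatment, and of the pair hapln1b alone was called against control during recovery. For hapln1a the log2 signal was 9.20, 9.42 and 9.69 at the end of treatment, 7.96, 8.22 and 8.41 at 2 days, 7.93, 8.13 and 7.82 at 5 days, 7.33, 7.51 and 7.27 at 9 days, and 8.09, 8.28 and 7.01 in controls. The end-of-treatment arrays stood far above the rest, and control replicate 3 was the lowest array of the series. Groups ranked end of treatment, 2 days, 5 days, control and 9 days, and beyond the first step neighbours overlapped. The difference from control was 1.64 ± 0.24 (adjusted p = 6.47e-05) at the end of treatment, 0.40 ± 0.24 (adjusted p = 0.34) at 2 days, 0.17 ± 0.24 (adjusted p = 0.764) at 5 days and -0.43 ± 0.24 (adjusted p = 0.32) at 9 days. Without control replicate 3 the 9-day value was -0.82 and passed (adjusted p = 0.00653). Without that array the end-of-treatment difference from control was 1.25 for hapln1a and 1.43 for hapln1b, both still called. Relative to the end of treatment hapln1a was lower at 2 days (-1.24, adjusted p = 0.00297), 5 days (-1.48, adjusted p = 0.000513) and 9 days (-2.07, adjusted p = 1.16e-05), the last being 4.2-fold lower. With the erythroid score in the fit the 2-day value was -1.57 and did not pass (adjusted p = 0.181).

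For hapln1b the log2 signal was 10.17, 10.20 and 10.12 at the end of treatment, 9.52, 9.69 and 9.91 at 2 days, 9.90, 9.69 and 9.52 at 5 days, 8.99, 8.85 and 9.58 at 9 days, and 8.66, 8.80 and 9.20 in controls. The end-of-treatment, 2-day and 5-day arrays all lay above the controls, and the 9-day arrays overlapped them. The difference from control was 1.27 ± 0.17 (adjusted p = 2.91e-05) at the end of treatment, 0.82 ± 0.17 (adjusted p = 0.0039) at 2 days, 0.82 ± 0.17 (adjusted p = 0.00733) at 5 days and 0.25 ± 0.17 (adjusted p = 0.44) at 9 days. The first 3 calls held with any single array left out. With the erythroid score in the fit the values at 2 and 5 days were 0.90 and 0.86 and did not pass (adjusted p = 0.655 and 0.254). The comparisons' factors on standard errors were 2.72 and 1.72. Compared with the end of treatment, hapln1b was lower at 9 days (-1.02, adjusted p = 0.00035), whereas -0.45 at 2 days (adjusted p = 0.12) and -0.46 at 5 days (adjusted p = 0.0934) did not pass. Both passed without 9-day replicate 3 (adjusted p = 0.043 and 0.0317) and in fits of only the 6 arrays compared (adjusted p = 0.0213 and 0.015). At 9 against 5 days the difference was -0.57 ± 0.17 (adjusted p = 0.0568), and it passed without 9-day replicate 3 (-0.79, adjusted p = 0.00765) or control replicate 3 (adjusted p = 0.041).

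Markers of dividing cells were also higher at the end of treatment and at 2 and 5 days. Of 8 such genes measured (12 listed), 8 were higher at the end of treatment than in controls, 5 at 2 days, 7 at 5 days and 0 at 9 days. The share of all genes that was higher was 14.6% at the end of treatment, 7.62% at 2 days and 3.90% at 5 days. At 9 days 7.54% of all genes were called in either direction. The list score, the median over the genes of an array's log2 difference from the control mean, was 1.01 to 1.27 at the end of treatment, 0.76 to 1.2 at 2 days, 1.01 to 1.34 at 5 days, 0.06 to 0.21 at 9 days and -0.13 to 0.05 in controls. The part of cell division in the hapln1b levels was not tested.

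The link protein genes were also compared within arrays. The difference hapln1b minus hapln1a was 0.72 ± 0.27 log2 units at the end of treatment, 1.51 ± 0.04 at 2 days, 1.74 ± 0.21 at 5 days, 1.77 ± 0.49 at 9 days and 1.1 ± 0.96 in controls (SD, n = 3). Its 3 recovery groups did not overlap the end-of-treatment group, by 0.79, 1.02 and 1.05 in the mean, with an exact 2-sided permutation p of 0.1 each, the smallest that 3 against 3 arrays allow. After Benjamini-Hochberg adjustment over 36 such tests p was 0.514. In controls the value spanned 0.52 to 2.2, with control replicate 3 at the top, so the control ratio is poorly determined. For fn1b minus fn1a the mean was 3.51 ± 0.07 at the end of treatment, 3.94 ± 0.23 at 2 days, 3.49 ± 0.28 at 5 days, 3.33 ± 0.40 at 9 days and 3.47 ± 0.40 in controls. Only 2 days stood apart from the end of treatment, by 0.44 (exact permutation p = 0.1).

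**Figure D3:**
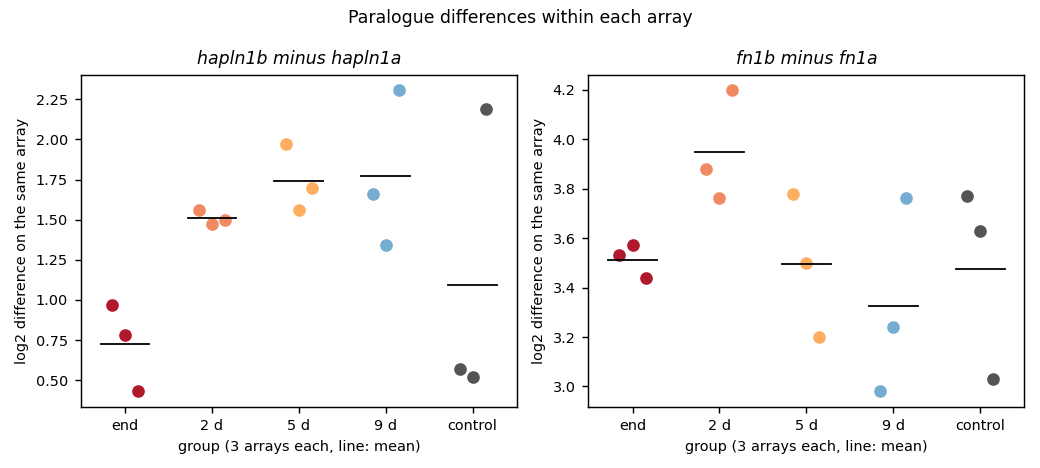
Difference in log2 signal between hapln1b and hapln1a (left) and between fn1b and fn1a (right) on each array (points, 3 per group; line, group mean), for the end of treatment, days 2, 5 and 9 of recovery, and control. The offset depends on the probes, so its change between groups is what can be read. The hapln1b minus hapln1a values lie between 0.43 and 0.96 at the end of treatment and from 1.35 upward in the 3 recovery groups, with controls from 0.52 to 2.2.

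Genes of hyaluronan synthesis, binding and breakdown were compared as a list. Of 27 measured (35 listed) 7 were higher at the end of treatment than in controls and 1 lower (25.9% and 3.7%, against 14.6% and 9.60% of all genes), with a median of 0.05 against 0.01 over all genes. The higher genes included the hyaluronan synthase gene has1 (1.29 ± 0.28), ugp2b (1.09 ± 0.11), which makes the UDP-glucose from which hyaluronan precursors derive, the hyaluronan receptor genes lyve1b (1.08 ± 0.20), stab1 (0.87 ± 0.15) and hmmr (0.87 ± 0.17), and the hyaluronan binding protein gene tnfaip6 (0.85 ± 0.20). The hyaluronan-degrading gene cemip was lower (-0.79 ± 0.15). The receptor genes also mark other cells: stab1 and lyve1b occur on endothelium and macrophages, and hmmr is a mitotic gene. At 9 days against the end of treatment 7 of the 27 were lower (25.9%, against 11.6% of all genes), among them has1 (-1.17 ± 0.28), tnfaip6 (-0.81 ± 0.20) and hmmr (-0.72 ± 0.17). In the same comparison cemip alone was higher (0.74 ± 0.15), 3.7% of the list against 7.38% of all genes.

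The growth factor gene mdka was high at the end of treatment and overlapped the controls from 2 days on. Its log2 signal was 9.12, 9.25 and 9.32 at the end of treatment, 8.01, 8.07 and 8.48 at 2 days, 8.16, 8.04 and 8.14 at 5 days, 8.06, 8.28 and 7.65 at 9 days, and 7.86, 8.35 and 8.12 in controls. All 3 end-of-treatment arrays lay above the other 12, which overlapped from group to group. The difference from control was 1.12 ± 0.15 (adjusted p = 4.52e-05) at the end of treatment, 0.08 ± 0.15 (95% interval -0.25 to 0.41) at 2 days, 0.01 ± 0.15 (-0.32 to 0.33) at 5 days and -0.11 ± 0.15 (-0.44 to 0.21) at 9 days. Relative to the end of treatment mdka was lower at 2 days (-1.05, adjusted p = 0.000409), 5 days (-1.12, adjusted p = 0.000158) and 9 days (-1.24, adjusted p = 3.01e-05). These calls also held with each array left out and under the settings tried.

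Among 18 measured genes of midkine receptors and binding partners, 5 were higher and 5 lower at the end of treatment (27.8% each, against 14.6% and 9.60% of all genes), with a median of 0.09. The higher ones encode the integrin subunits itga4 (1.29 ± 0.14), itga6a (1.28 ± 0.23) and itgb1b (0.30 ± 0.08) and the syndecans sdc3 (0.63 ± 0.09) and sdc4 (0.58 ± 0.08). The lists share genes: itga4, itgb1b and sdc4 were already counted among the fibronectin partners. The lower ones were the receptor-type phosphatase gene ptprz1b (-1.04 ± 0.11), the lipoprotein receptor genes lrp1ab (-0.99 ± 0.16) and lrp1aa (-0.44 ± 0.13), the kinase gene alk (-0.38 ± 0.12) and the nucleolin gene ncl (-0.38 ± 0.09). The calls of alk and lrp1aa were lost when single arrays were left out (adjusted p up to 0.123 for alk and 0.0734 for lrp1aa).

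**Figure D4:**
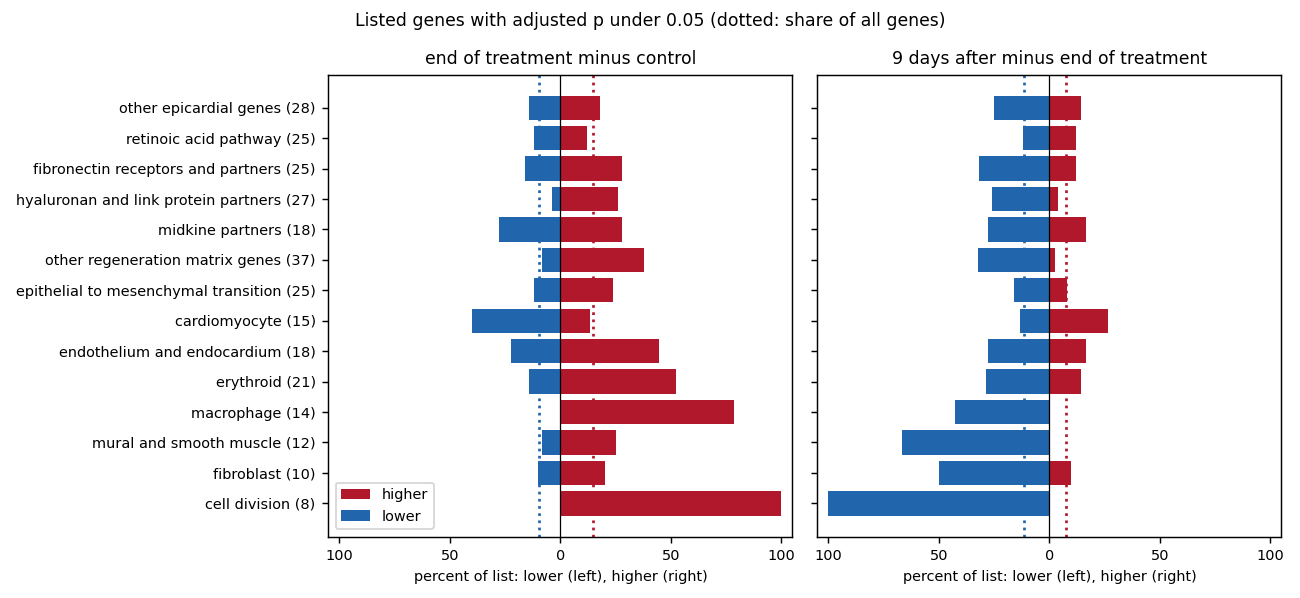
Share of each gene list (percent, horizontal axis; number of genes measured in brackets) that was higher (red, to the right) or lower (blue, to the left) with an adjusted p under 0.05, at the end of treatment against control (left) and at 9 days against the end of treatment (right). Dotted lines mark the share of all 19260 genes, 14.6% higher and 9.60% lower on the left and 7.38% higher and 11.6% lower on the right. All 8 cell division genes are higher in the left panel and lower in the right one.

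Of 28 other genes known from epicardium that were measured (32 listed), 5 were higher and 4 lower at the end of treatment, with a median of -0.06. These shares, 17.9% and 14.3%, are near the 14.6% and 9.60% of all genes. The chemokine gene cxcl12b was higher by 1.43 ± 0.20, the matrix proteoglycan gene lum by 1.32 ± 0.16, itga4 by 1.29 ± 0.14, tgm2b by 0.98 ± 0.18 and the keratin gene krt4 by 0.62 ± 0.17. The PDGF receptor gene pdgfra was lower (-0.84 ± 0.13), as were bnc2 (-0.71 ± 0.13), podxl (-0.50 ± 0.07) and sema3e (-0.50 ± 0.15). Of these genes itga4 and tgm2b are also in the fibronectin list, itga4 in the midkine list, and lum and pdgfra among the fibroblast markers. The krt4 call was lost without control replicate 1 or 3 or end-of-treatment replicate 3, and the sema3e call without control replicate 2 or end-of-treatment replicate 2. At 9 days against control hand2 alone was called (-0.55, adjusted p = 0.0171), 3.57% of the list against 3.30% of all genes lower, and single arrays removed the call. Mean log2 signals of pdgfra were 6.63 ± 0.09 at the end of treatment, 6.67 ± 0.01 at 2 days, 6.95 ± 0.13 at 5 days, 7.09 ± 0.27 at 9 days and 7.47 ± 0.20 in controls.

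Other matrix genes linked to regeneration had the highest median of the pathway lists. Of 37 measured (44 listed) 14 were higher and 3 lower at the end of treatment (37.8% and 8.11%, against 14.6% and 9.60% of all genes), with a median of 0.21. The lysyl oxidase gene loxl2a was higher by 2.95 ± 0.27, the protease inhibitor gene timp2b by 1.54 ± 0.15, the collagen gene col12a1a by 1.5 ± 0.24 and the fibulin gene fbln2 by 1.41 ± 0.11. Another lysyl oxidase gene, loxl1, was higher by 0.48 ± 0.11 at the end of treatment and by 0.93 ± 0.11 at 2 days. The lower genes were the elastic fibre genes fbln5 (-0.65 ± 0.16) and emilin1a (-0.68 ± 0.13) and the laminin gene lama5 (-0.68 ± 0.12). At 9 days against control 3 were higher and 1 lower, 10.8% of the list against 7.54% of all genes called. The higher ones were loxl2a (1.35 ± 0.27), lamb1a (0.53 ± 0.12) and fbln2 (0.48 ± 0.11), and the lower one was mfap5 (-0.40 ± 0.11), with 0.33 ± 0.11 at the end of treatment. The calls of lamb1a, fbln2 and mfap5 depended on single arrays. Of 25 genes of epithelial to mesenchymal transition 6 were higher and 3 lower at the end of treatment (24% and 12%, against 14.6% and 9.60% of all genes), with a median of -0.03. Among these tgfb1b (1.15 ± 0.10) and tgfbr2a (0.75 ± 0.13), a TGF-beta ligand and receptor, were higher. So was cdh5 (0.34 ± 0.06), which is also in the list of endothelial markers. The lower ones were zeb2b (-0.56 ± 0.16), twist1a (-0.44 ± 0.15) and tgfb2 (-0.29 ± 0.08), and all 3 calls were lost without single arrays. Over the pathway lists 178 different genes were tested and 65 were called at the end of treatment against control, where 24.2% of all genes were called. Of these 65 calls 18 were lost without at least 1 array.

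Markers of other cells in the ventricle also differed between groups, not all with the same course. Macrophage markers were higher at the end of treatment than in controls for 11 of 14 genes (78.6%) and lower for 0. Of all genes 14.6% were higher and 9.60% lower in that comparison. Their score was 1.03 to 1.42 at the end of treatment, 0.63 to 1.04 at 2 days, 0.74 to 0.96 at 5 days, 0.65 to 0.84 at 9 days and -0.16 to 0.13 in controls. The erythroid score was 0.31 to 0.38, 1.02 to 1.11, 0.56 to 0.65 and 0.24 to 0.40 in the same order, and -0.29 to 0.39 in controls. At the end of treatment 11 of 21 erythroid genes were higher and 3 lower than in controls (52.4% and 14.3%). The mural and smooth muscle score lay at 0.18 to 0.30 at the end of treatment, -0.15 to 0.21 at 2 days, -0.46 to -0.18 at 5 days, -0.68 to -0.13 at 9 days and -0.16 to 0.18 in controls. Fibroblast markers scored 0.15 to 0.33 at the end of treatment, -0.36 to -0.16 at 9 days and -0.15 to 0.10 in controls. Endothelial markers were higher for 8 and lower for 4 of 18 genes at the end of treatment (44.4% and 22.2%). Of 15 cardiomyocyte markers 2 were higher and 6 lower at the end of treatment (13.3% and 40%). Their summed linear signal was 72400 to 73300 at the end of treatment, 70600 to 75500 at 2 to 5 days, 71300 to 72800 at 9 days and 74700 to 76700 in controls. No detection values were used, so no marker is called absent, and the part of these cells in the levels of the 10 genes was not tested.

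The genes whose signal was most like that of a member were ranked by Pearson's r over the 15 arrays, which mixes group differences with spread inside groups. For tcf21 these were tbx18 (0.956), ptpn9b (0.93) and znf503 (0.91), and for tbx18 they were tcf21, arhgap20b (0.887) and ptp4a2b (0.885). For aldh1a2 they were mrps10 (0.939), ugdh (0.887), which encodes the enzyme for a hyaluronan precursor, and ints7 (0.875). Closest to fn1a were mdka (0.911), mgp (0.909) and rcn3 (0.904), and closest to fn1b were htra1b (0.934), anxa1a (0.924) and gpia (0.923). The nearest to hapln1a were gpia (0.951), col12a1a (0.945) and glrx (0.935). The nearest to hapln1b were the linker histone gene h1l1 (r = 0.975), hmmr (0.953) and tmem88b (0.947), and to mdka ankrd10a (0.974), prkcbp1l (0.958) and znf414 (0.956).

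Correlation of deviations from group means shows which members varied together inside groups. Among the transcription factor genes r was 0.74 between tbx18 and wt1a and 0.64 between tcf21 and wt1a. It was 0.68 between fn1b and hapln1a and 0.67 each for tbx18 and wt1b with mdka. The link protein gene hapln1b ran against several members, at -0.56 with tcf21 and -0.39 with hapln1a. On 9-day replicate 3 the deviation was -0.45 for tcf21, -0.47 for tbx18, -0.34 for wt1a, -0.37 for wt1b, -0.48 for fn1a and -0.35 for mdka. On that array it was 0.44 for hapln1b, -0.05 for aldh1a2, -0.05 for fn1b and -0.10 for hapln1a. How far single arrays carry these correlations was not tested. The points are 15 arrays that were normalized together, both genes of a pair are read on the same arrays, and these values are descriptions.

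**Figure D5:**
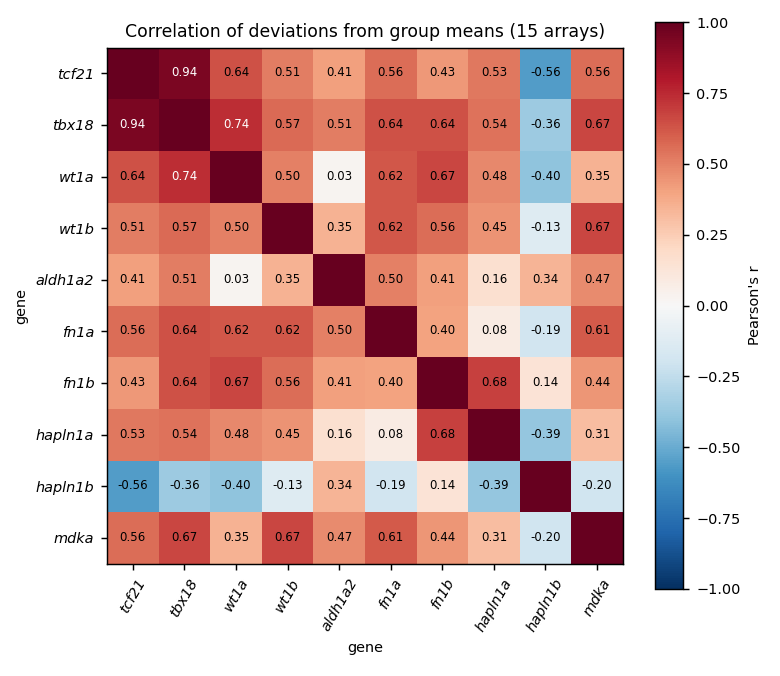
Pearson's r between each pair of the 10 genes (both axes) over 15 arrays after subtraction of each group's mean (colour and number). The highest value is 0.94 for tcf21 and tbx18, and hapln1b has the negative values, down to -0.56.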

How the data were processed

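Whole-transcript arrays of 15 ventricle pools were analysed in 5 groups of 3. The deposited values are log2 expression values that the authors made with RMA in the R package oligo, per the submitters' processing notes. RMA subtracts background, makes the arrays' quantiles equal and combines the probes of a cluster. Software versions, array build and probe set level were not given in the sources used here. Array medians were 4.022 to 4.095. The number of arrays limits the precision, and the median standard error over all genes was 0.14.

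The array's annotation table held 21661 of 75212 transcript clusters, 20806 with 1 symbol and 855 with several. Gene IDs matched a RefSeq gene table of assembly GRCz12tu for 20323 clusters. Of a gene's clusters (1365 genes had several) the one with the highest mean was used. Each of the 10 members had 1 cluster, and whether probes of gene copies such as fn1a and fn1b cross-hybridise is not known.

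Group means were fitted over all 15 arrays with limma 3.58.1 in R 4.3.3 (trended variance, 2-sided), with Benjamini-Hochberg adjustment over 19260 genes within each of 9 comparisons and a threshold of 0.05. Data were prepared and plotted in Python 3.11.15 with pandas 2.3.3 and matplotlib 3.10.9. The fit was tested on simulated data with 100 known changes among 19260 genes, for the end of treatment against control. It recovered 42% of changes of 0.5 log2 units and 90% of changes of 1, with 7 false calls each. In the data 24.2% of all genes were called in that comparison, far more than were changed in the simulation. The adjusted threshold depends on that share, so these rates do not carry over to the data. Equal replicate numbers did not pair arrays: correlations of deviations had a median of -0.012 for equal numbers and 0.011 for unequal ones.

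The members and the lists were chosen with earlier results of these data known. Named are all members, up to 4 genes per pathway list with the smallest F test p, genes behind counts of 5 or fewer in the pathway lists, and the 3 genes most like each member that passed the F test. Genes behind such counts in the cell marker lists are not named. Further list genes were named after their values were seen. Alternatives were no variance trend, robust variance, array weights, median centring, cyclic loess, genes of low mean signal left out (12840 kept), the mean of clusters, every cluster, a fit of the 6 arrays compared alone, replicate number as a block, the erythroid score as covariate, a 1.5-fold minimum, and each array left out.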

Additional observations from a re-analysis of the deposited data

Results flagged for a closer look

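Differences from control that were not the same at 2 sampling times, by limma's direct contrast of the times (which cancels the shared controls), concerned 6 of the 10 genes, each lower in recovery than at the end of treatment. At 2 days these log2 contrasts were -0.93 for fn1a, -1.24 for hapln1a and -1.05 for mdka. At 5 days they were -0.46 for aldh1a2, -0.99 for fn1a, -1.0 for fn1b, -1.48 for hapln1a and -1.12 for mdka. At 9 days they were -0.58 for aldh1a2, -1.26 for fn1a, -1.44 for fn1b, -2.07 for hapln1a, -1.02 for hapln1b and -1.24 for mdka. Of all genes 4.45% were called lower at 2 days, 8.01% at 5 days and 11.6% at 9 days than at the end of treatment. In each of the listed contrasts the 3 recovery arrays lay below the 3 end-of-treatment arrays. The share of all genes without overlap is not given for these contrasts, so this lack of overlap has no baseline here. For the end of treatment against control, a different comparison, that share was 38.1%. The 5-day contrast of aldh1a2 lost its call without end-of-treatment replicate 2 or 3 or 5-day replicate 3.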

How the results depend on the processing

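Calls among the 10 members at the end of treatment against control numbered 7 under every other setting tried and 7 to 8 with arrays left out, although the erythroid covariate replaced tbx18 by wt1b, and at 9 days against the end of treatment 6, or 5 with a 1.5-fold minimum. At 2 days against control (2 calls) the count was 1 without the variance trend, 1 with every cluster, 1 with the erythroid covariate, 4 with median centring and 1 to 3 with arrays left out. At 9 days against control (3 calls) it was 0 with every cluster, 1 with only the 6 arrays, 1 with the erythroid covariate and 0 to 4 with arrays left out. The wt1b calls with this covariate rest mostly on the control arrays, as given above. With that covariate hapln1b at 2 and 5 days was lost, and wt1b was the single call at 2, 5 and 9 days alike. At 5 days against the end of treatment (5 calls) it was 8 with only the 6 arrays and 4 to 7 with arrays left out. The fit of only the 6 arrays added hapln1b, lower at 5 days, and tcf21 and tbx18, both higher at 5 days. At 9 against 5 days (0 calls) it was 1 with array weights, 1 with genes of low mean signal left out, 1 with only the 6 arrays and 0 to 2 with arrays left out. The F test gave 7 to 8 with arrays left out. With the replicate number as a block, 9 against 5 days gave 1 call (hapln1b, adjusted p = 0.0499), and no other count changed by over 1.5 times. No pairing of arrays by number was seen. Median centring put the median of all genes at the end of treatment against control at -0.11, against 0.01 without it, with the same 7 calls. The causes of these shifts were not tested.

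No called value changed direction in 990 member values under other settings or in 1350 with arrays left out, while 19 and 42 values without a call changed sign. With 3 arrays a group and a median standard error of 0.14, a missed call does not show equal levels. With the erythroid score the factor on standard errors was 1 to 2.72, given as 1 value per comparison. The standard error of a single gene can have changed by another factor. No detection values were used, so signal over background is unknown for these genes.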

Other observations

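Control replicate 2, the array with the high wt1b signal, was also high for the genes whose signal was most like that of wt1b over the 15 arrays. These were apoeb, an apolipoprotein E gene (Pearson's r = 0.912), enpep, a membrane aminopeptidase gene (0.911), and duox, a dual oxidase gene (0.886). On control replicates 1, 2 and 3 the log2 signal was 4.84, 6.29 and 5.02 for apoeb, 4.56, 5.87 and 4.7 for enpep, and 4.07, 6.63 and 3.78 for duox. The 3 genes were chosen after their values were seen, although wt1b did not pass the F test. They were picked for their correlation with wt1b on these same arrays, where control replicate 2 stands alone. Their high signal on that array is thus largely set by the choice and is no separate evidence about it.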
